A study of Danio rerio with 6 samples.

Results

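The genes described here encode proteins that the liver secretes into the plasma, together with the alpha-2-macroglobulins, and they were compared between WT and il7r-/- zebrafish larvae. They were taken by symbol: genes whose names start with a2m, c3a., c3b., apoa, apob, apoc, apoe, apoh, serpina, serpinc1, serpind1 or serpinf2, and 17 single genes such as fga, f2, ttr and cp. This gave 49 of the 19260 genes that a probe set of the array names alone, and the rule uses names only. Where several probe sets named a gene, the one with the highest mean over all 6 arrays stood for it. The prefix apob also caught apobec2a and apobec2b, muscle genes of the cytidine deaminase family that encode no plasma protein, so summaries are given for all 49 genes and, where it matters, for the other 47. Of the single genes, tfa, hpx and cfb had no probe set of their own, no probe set named a c3b. or apoh gene alone, and 8 probe sets that list a gene of the choice as 1 of several, including 1 that lists 2 genes of the symbol serpina7, were assigned to none.

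The WT larvae were of the Tu strain. The il7r-/- larvae were homozygous for a small frameshift deletion in the gene of the interleukin 7 receptor, made with CRISPR/Cas9, and came from 1 mutant line, so the deletion and other differences carried by that line cannot be told apart. Each group had 3 arrays of whole larvae at 4 dpf (days post fertilization), pooled for each sample according to the methods, and no treatment or other allele is given for either group. RNA came from whole larvae. Fewer liver cells, less RNA per liver cell and a difference in another tissue that makes the same transcript cannot be told apart. RNA was hybridized to Affymetrix Zebrafish Gene ST arrays, and the values are log2 RMA values, the output of a procedure that corrects background, makes the arrays comparable and summarises the probes of each probe set. All differences below are il7r-/- minus WT on this log2 scale.

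Most of these proteins are made by hepatocytes, the main cells of the liver, while the yolk syncytial layer and the intestine also make apolipoproteins. Alpha-2-macroglobulins are large inhibitors that trap proteases, and they share ancestry with the complement proteins C3, C4 and C5. Complement marks and lyses microbes, fibrinogen and prothrombin form clots, serpins inhibit the proteases of clotting and inflammation, and apolipoproteins carry lipids through the plasma. The interleukin 7 receptor is best known for its role in the development of lymphocytes.

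The level of the targeted gene does not check the labels, since a small deletion need not lower its transcript. Its probe set was also dim, with a mean of 1.62 in the lowest tertile of genes, where a loss could be hard to see. The il7r probe set read 1.4, 1.8 and 1.76 in the WT arrays and 1.42, 1.64 and 1.71 in the il7r-/- arrays, with a difference of -0.06 (SE 0.15, limma adjusted p = 0.907). In the GRCz12tu assembly 2 of the 49 genes, vtnb and serpinf2a, are on the chromosome of il7r, and 0 are within 5 Mb of that gene. Array medians ran from 3.41 to 3.44. WT replicate 3 stood apart before any test: across all probe sets its Pearson correlation was 0.965 with either WT array, against 0.977 between those, and the il7r-/- arrays correlated with each other at 0.979 to 0.98. It also stood apart in these genes. It read above both other WT arrays in 32 of the 49 genes (65.3%), against 34% of all genes, and was the highest of the 6 arrays in 23 (46.9%), against 19.6%. Many of the values below are therefore also given without it.

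A single gene of the 49 passed the test. a2m2a fell in il7r-/- larvae, and none rose, at a limma adjusted p under 0.05 over all probe sets with a fold change over 1.5. Of all 19260 genes, 0.182% were called lower and 0.0519% higher by the same rule. The other 48 genes had adjusted p values of 0.249 or above, and their values below are descriptions of the 6 arrays. The median difference of the 49 genes was -0.21, beside -0.02 over all genes, and 36 of the 49 (73.5%) had a difference below 0, beside 54.4% of all genes. Without the apobec2 genes the median was -0.22, and 36 of 47 genes (76.6%) were below 0. Much of this displacement lay in WT replicate 3. With that array left out, the median of the 49 genes was -0.08 beside -0.02 for all genes, and 31 (63.3%) were below 0 beside 54.1%. Also without it, the 12 alpha-2-macroglobulins had a median of -0.01 with 6 below 0. The 35 genes other than these and the apobec2 genes then had a median of -0.14 with 25 (71.4%) below 0.

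**Figure D1:**
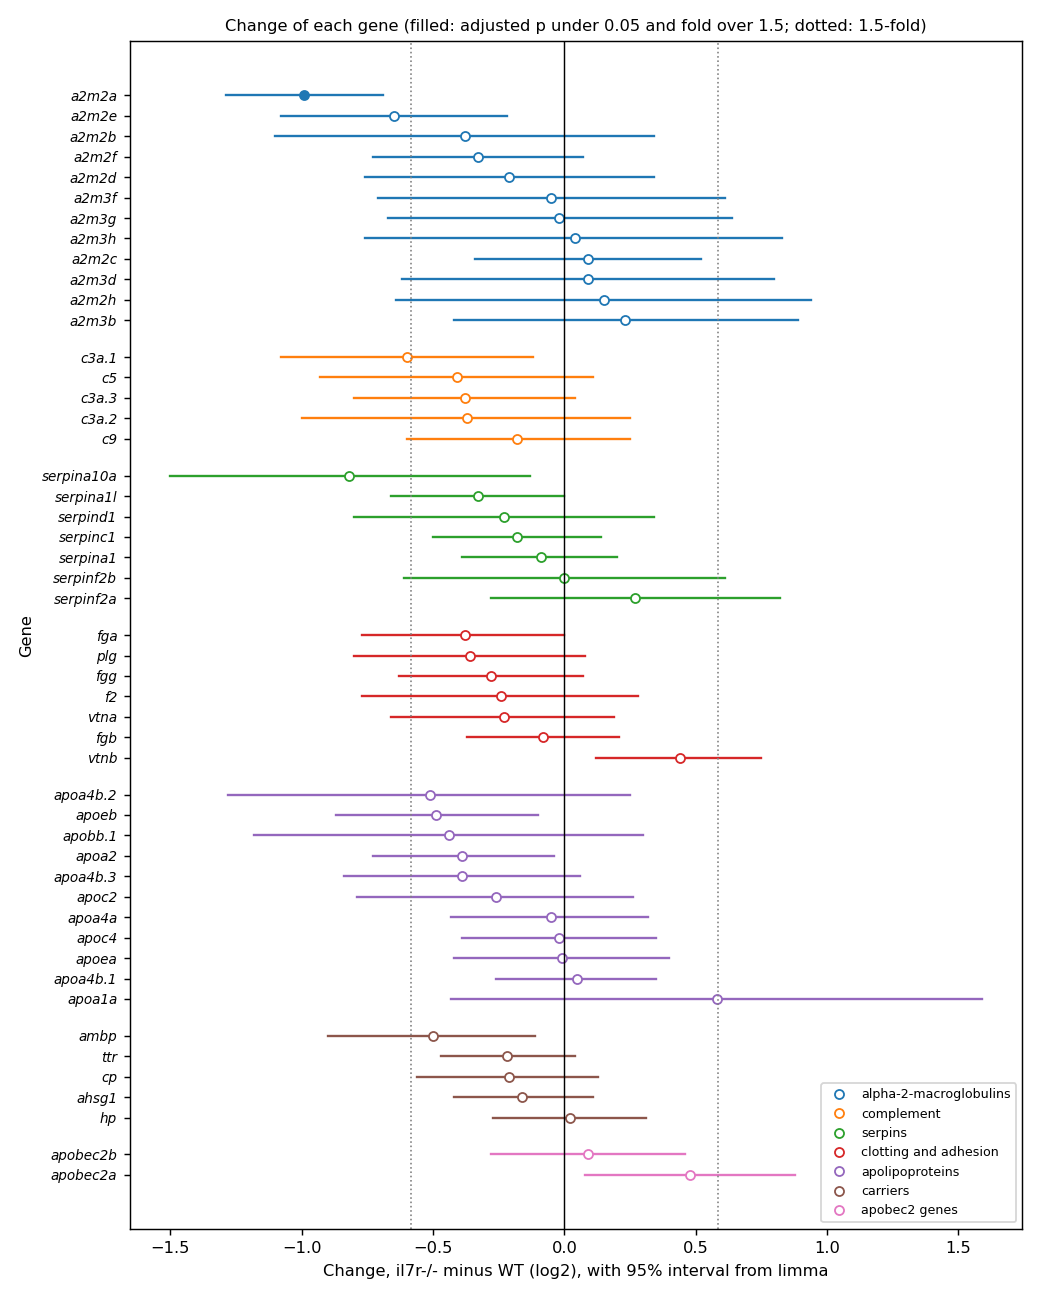
Difference of each of the 49 genes, il7r-/- minus WT in log2 units (x axis), by gene and role (y axis), where points are limma estimates, lines their 95% intervals, and the dotted lines mark 1.5-fold. Most points lie left of 0 with intervals that cross it, and a2m2a is the 1 filled point, at -0.99.

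The intervals were wide for most genes. The standard errors ran from 0.11 to 0.42, and the 95% interval lay within 1.5-fold of no difference (0.58 on the log2 scale) for 13 of the 49 genes and reached past 1.5-fold for the other 36. The interval lay wholly below 0 for 7 genes and wholly above it for 2, and for 27 it held both 0 and a 1.5-fold change. Where the 3 arrays of one genotype all lay on one side of the 3 of the other, the gene was counted as not overlapping. This held for 11 genes that were lower in il7r-/- larvae, a2m2a, a2m2e, c3a.1, serpina10a, serpina1l, fga, fgg, apoeb, apoa2, ambp and ttr, and for 2 that were higher, vtnb and apobec2a. Among all genes, 13.4% did not overlap in the lower direction and 8.84% in the higher direction. Without WT replicate 3, 13 of the 49 genes did not overlap in the lower direction (26.5%, beside 22.8% of all genes) and 4 in the higher direction (8.16%, beside 14.8%).

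At an unadjusted limma p under 0.05 with the same fold, 4 of the 49 genes were lower (a2m2a, a2m2e, c3a.1 and serpina10a) and 0 higher, beside 2.35% and 0.623% of all genes. The methods' t-test called 2 lower without adjustment, a2m2a and a2m2e, and 0 higher, beside 1.98% and 0.488% of all genes, and 0 after Benjamini-Hochberg adjustment. An exact permutation test of a single gene with 3 arrays against 3 cannot go below 0.1.

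**Figure D2:**
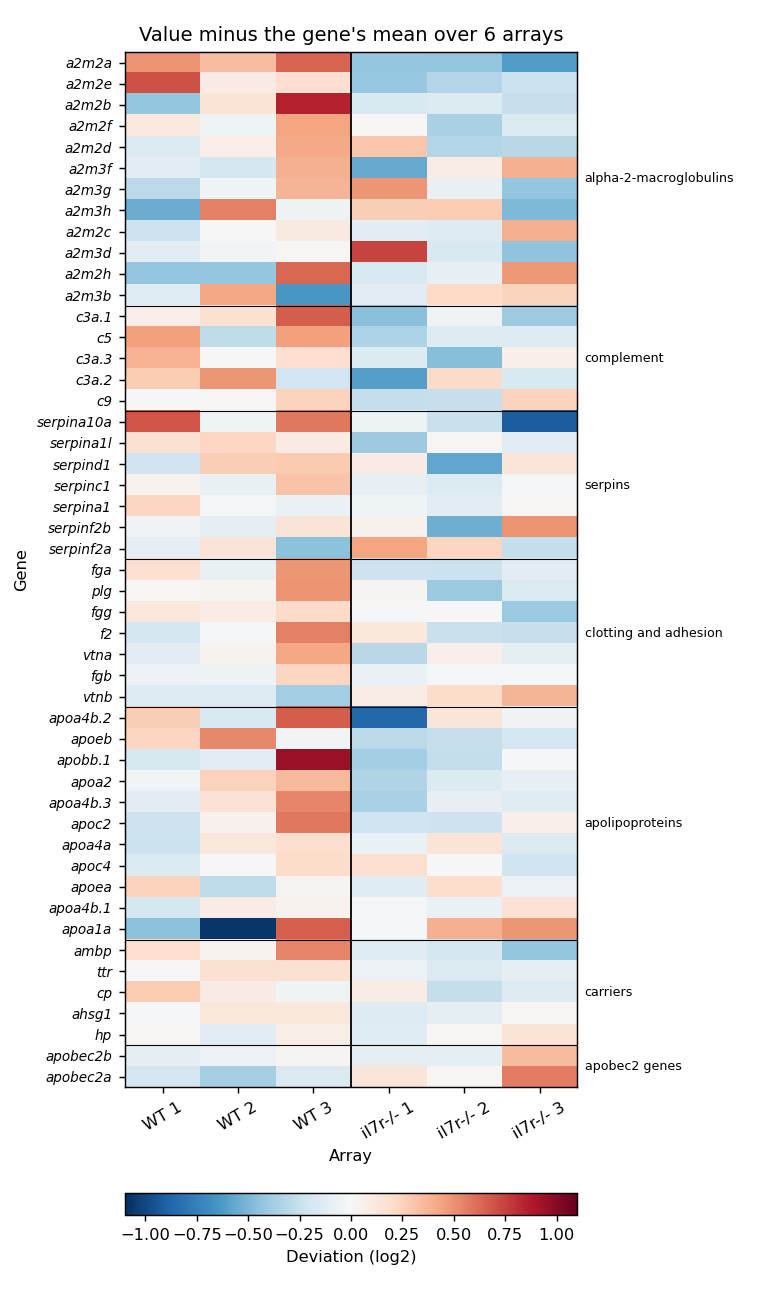
Value of each of the 49 genes in each array minus the gene's mean over the 6 arrays (colour, log2 units), with genes by role in rows and the 3 WT and 3 il7r-/- arrays in columns. The WT replicate 3 column holds many of the high values, and the a2m2a row is high in all 3 WT arrays and low in all 3 il7r-/- arrays.

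The alpha-2-macroglobulins were the largest family, with 12 genes in the 2 subfamilies that the symbols name, 7 a2m2 and 5 a2m3 genes. The called gene belonged to the first. a2m2a read 4.01, 3.86 and 4.16 in the WT arrays and 3.09, 3.08 and 2.9 in the il7r-/- arrays. The groups lay clearly apart, with the lowest WT value above every il7r-/- value. The mean fell from 4.01 ± 0.15 to 3.02 ± 0.11 (SD, n = 3 each), a difference of -0.99 (SE 0.13, 95% interval -1.29 to -0.69, adjusted p = 0.048), or 1.98-fold. The adjusted p lay close to the threshold, and leaving out any 1 of the 6 arrays moved it past 0.05, to between 0.0677 and 0.192, while the difference stayed between -1.06 and -0.91 over all the settings tried. With the replicate number as a block the adjusted p of a2m2a was 0.19.

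a2m2e was the other alpha-2-macroglobulin whose groups did not overlap. It read 4.13, 3.52 and 3.61 in WT and 3.01, 3.11 and 3.19 in il7r-/- larvae. The difference was -0.65 (SE 0.18, adjusted p = 0.249). It was -0.72 without WT replicate 3 and -0.46 without WT replicate 1, the highest array. A shared probe set that names a2m2e with a2m2h was not used, and values of single alpha-2-macroglobulins are uncertain where a probe can bind the transcript of a paralog.

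The other a2m2 genes overlapped between the genotypes. a2m2b read 1.68, 2.25 and 2.95 in WT and 1.94, 1.95 and 1.85 in il7r-/- larvae, so that its difference of -0.38 came from a high WT replicate 3 and was -0.05 without it. a2m2f read 2.06, 1.91 and 2.39 against 1.97, 1.6 and 1.8, a difference of -0.33 that was -0.19 without WT replicate 3. a2m2d read 3.28, 3.5 and 3.86 against 3.75, 3.12 and 3.14, a difference of -0.21, with il7r-/- replicate 1 among the WT values. That difference was -0.05 without WT replicate 3 and -0.42 without il7r-/- replicate 1. The remaining pair lay near or above 0. a2m2c read 1.33, 1.55 and 1.66 against 1.44, 1.42 and 1.95, a difference of 0.09 that was -0.08 without il7r-/- replicate 3. A second probe set of a2m2c gave -0.01. a2m2h read 1.81, 1.81 and 2.87 against 2.07, 2.15 and 2.71, a difference of 0.15, and 1 array of each genotype stood well above the other two. The sign of a2m2h rested on single arrays, since the difference was 0.5 without WT replicate 3 and -0.03 without either other WT array.

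The 5 a2m3 genes showed no common direction. a2m3b read 3.05, 3.61 and 2.54 in WT and 3.07, 3.4 and 3.43 in il7r-/- larvae, a difference of 0.23 that was -0.03 without WT replicate 3, here the lowest array. a2m3d read 1.6, 1.69 and 1.73 against 2.46, 1.55 and 1.28, with the widest spread in il7r-/- larvae and a difference of 0.09. a2m3f read 1.91, 1.84 and 2.43 against 1.48, 2.12 and 2.43, a difference of -0.05. The genotypes overlapped in each of these genes. a2m3g read 1.82, 2.07 and 2.49 against 2.6, 2.04 and 1.69, a difference of -0.02. a2m3h read 1.49, 2.59 and 1.98 against 2.31, 2.32 and 1.54, a difference of 0.04, and 0.02 in a second probe set. Leaving out single arrays turned the sign in all 5 genes, and the differences then ran from -0.26 to 0.5.

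**Figure D3:**
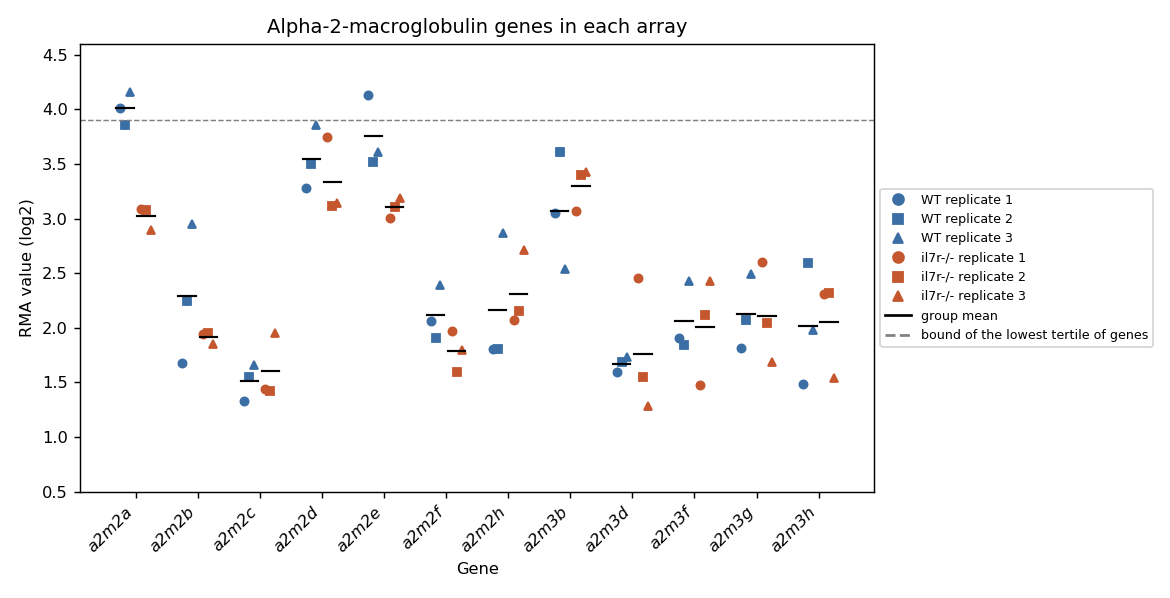
RMA values (log2, y axis) of the 12 alpha-2-macroglobulin genes (x axis) in the 3 WT and 3 il7r-/- arrays, where points are arrays, bars group means, and the dashed line at 3.9 bounds the lowest tertile of all genes by mean value. In a2m2a and a2m2e the 3 WT points lie above the 3 il7r-/- points, and in the other 10 genes the points overlap.

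By group, the median difference was -0.33 over the 7 a2m2 genes, 0.04 over the 5 a2m3 genes and -0.03 over all 12, of which 7 were below 0. All 12 lay in the lowest tertile of genes by mean value, and 10 of them had a mean under 3.43, the median of all values in the table, so that most of this family was measured at low signal. The called gene has neighbours of its own kind. In the GRCz12tu gene order the 7 a2m2 genes follow one another as a2m2b, a2m2a, a2m2c, a2m2e, a2m2d, a2m2h and a2m2f. The differences along this row were -0.38, -0.99, 0.09, -0.65, -0.21, 0.15 and -0.33, and of these only a2m2a was called. A second row of 4, a2m3f, a2m3g, a2m3h and a2m3d, had differences between -0.05 and 0.09.

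All 5 complement genes had differences below 0, from -0.6 to -0.18 with a median of -0.38, and none was called. c3a.1 encodes a form of C3, the component on which the activation routes of complement meet. It read 4.38, 4.49 and 4.99 in WT and 3.86, 4.28 and 3.93 in il7r-/- larvae. The groups did not overlap, although il7r-/- replicate 2 came close to WT replicate 1. The difference was -0.6 (SE 0.2, 95% interval -1.08 to -0.12, adjusted p = 0.327), and -0.41 without WT replicate 3. Its neighbours c3a.2 and c3a.3 had differences of -0.37 and -0.38, with overlap in both, or -0.57 and -0.38 without WT replicate 3. c5, which starts the assembly of the lytic pore, had a difference of -0.41, and c9, which forms most of that pore, one of -0.18, which were -0.29 and -0.09 without WT replicate 3. The median of the 5 genes was -0.38 with or without WT replicate 3, and all 5 stayed below 0 without it. The other 24 complement genes measured, among them a lectin, factor H-like regulators and receptors, had a median of 0.01 with 11 below 0 and none called. Their differences ran from -0.84 to 0.34. Of these 24 genes, 22 lay in the lowest tertile of genes by mean value, as did 4 of the 5 above. Within the list of 24 the brightest genes were c7a and c6.2, which encode parts of the pore, with differences of 0.29 and 0.06. Without WT replicate 3 these were 0.4 and 0.18.

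Of the 7 serpins, 5 had differences below 0 and 1 above, with a median of -0.18. serpina10a is named for protein Z-dependent protease inhibitor, which in mammals blocks activated factor X. It read 5.73, 4.99 and 5.62 in WT and 4.98, 4.79 and 4.12 in il7r-/- larvae. The groups did not overlap but touched, since WT replicate 2 lay just above il7r-/- replicate 1. Its difference of -0.82 (SE 0.29, 95% interval -1.5 to -0.13, adjusted p = 0.345) was the lowest after a2m2a. It was -0.73 without WT replicate 3 and -0.56 without il7r-/- replicate 3, the lowest array. At the other end, serpinf2a, a gene of the alpha-2-antiplasmin family, read 1.56, 1.8 and 1.2 against 2.09, 1.89 and 1.39, with overlap and a difference of 0.27 that was 0.11 without WT replicate 3 and 0.12 without il7r-/- replicate 1. Its paralog serpinf2b had a difference of 0. serpinc1, which encodes antithrombin, and serpind1, which encodes heparin cofactor II, had differences of -0.18 and -0.23, or -0.07 and -0.14 without WT replicate 3. serpina1 and serpina1l are relatives of alpha-1-antitrypsin, the inhibitor of neutrophil elastase in mammals. They had differences of -0.09 and -0.33, with no overlap in serpina1l. A second probe set of serpina1 gave 0.1.

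Of the 7 clotting and adhesion genes, 6 had differences below 0. The median was -0.24, and it was -0.08 without WT replicate 3. That array was the highest of the 6 in 6 of the 7 genes. fga encodes the alpha chain of fibrinogen, the precursor of the clot. It read 4.89, 4.63 and 5.2 in WT and 4.49, 4.48 and 4.6 in il7r-/- larvae. The groups did not overlap, by a narrow margin. The difference was -0.38 (SE 0.16, adjusted p = 0.422), and -0.24 without WT replicate 3. The genes of the other fibrinogen chains, fgb and fgg, had differences of -0.08 and -0.28, and without WT replicate 3 these were 0.02 and -0.24. plg, which encodes plasminogen, the enzyme precursor that dissolves clots, had a difference of -0.36, and f2, which encodes prothrombin, one of -0.24. Without WT replicate 3 these were -0.2 and -0.02.

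Vitronectin is an adhesive plasma protein that also binds the complement pore. vtnb read 4.03, 4.03 and 3.79 in WT and 4.25, 4.37 and 4.54 in il7r-/- larvae. Every il7r-/- array was above every WT array. The difference was 0.44 (SE 0.13, 95% interval 0.12 to 0.75, adjusted p = 0.278), and 0.36 without WT replicate 3, and it was not called. Its paralog vtna had a difference of -0.23, which was -0.08 without WT replicate 3, and the difference between the paralogs was not tested. The other 21 coagulation genes measured had a median of -0.05 with 12 below 0 and none called, and among them proza and f10 had differences of -0.11 and 0.01.

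**Figure D4:**
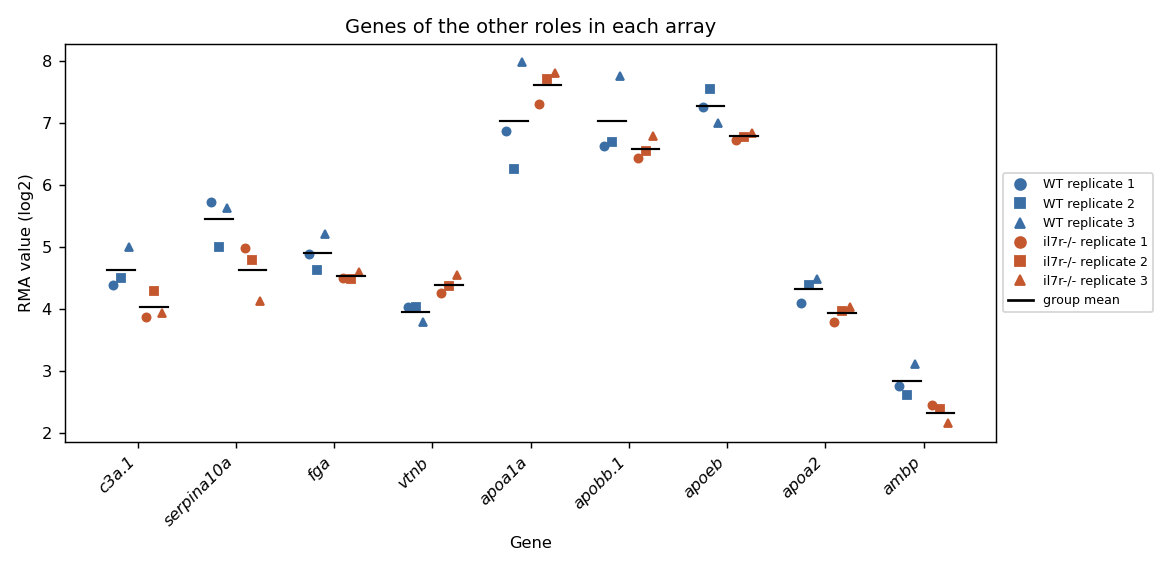
RMA values (log2, y axis) of 9 genes of the other roles (x axis) in the 3 WT and 3 il7r-/- arrays, where points are arrays and bars group means. WT replicate 3 is the highest array of c3a.1, fga, apoa1a, apobb.1, apoa2 and ambp, and vtnb has all il7r-/- points above the WT points.

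The apolipoproteins were 11 genes, 9 of them with differences below 0 and a median of -0.26. This median was -0.04 without WT replicate 3, and 6 of the 11 were then below 0. That array was the highest of the 6 in 8 of the 11 genes. The median deviation from the gene means in WT replicate 3 was 0.36 for the apolipoproteins and 0.63 for 11 intestinal genes. These are called the enterocyte genes here, although not all of them belong to that cell type. In the other WT arrays it was -0.16 and 0.05 for the apolipoproteins and -0.16 and -0.2 for the enterocyte genes. The high value of WT replicate 3 was not particular to these groups. It was 0.43 for the clotting and adhesion genes, 0.38 for the alpha-2-macroglobulins and 0.12 for 28 hepatocyte products and enzymes. The part of gut tissue in these values was not tested. For 15 exocrine pancreas genes the median deviation was 0.15 in WT replicate 3 and 0.27 in il7r-/- replicate 3, the highest of the 6 arrays. For 10 macrophage genes it was 0.01 in WT replicate 3.

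apoa1a, which encodes the main protein of high-density lipoprotein, showed the widest spread. It read 6.87, 6.25 and 7.98 in WT and 7.31, 7.71 and 7.81 in il7r-/- larvae. WT replicate 3 was above every il7r-/- array, and the other WT arrays were below all of them. The difference of 0.58 (SE 0.42, 95% interval -0.43 to 1.59, adjusted p = 0.64) was the highest of the 49 genes and became 1.05 without WT replicate 3 and 0.18 without WT replicate 2, while a second probe set of the gene gave 0.19. apobb.1, which encodes the structural protein of low-density lipoprotein, was chosen here after its values were seen, as the opposite case. It read 6.63, 6.69 and 7.75 against 6.43, 6.54 and 6.78, so its difference of -0.44 became -0.08 without WT replicate 3.

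A long row of apolipoprotein genes lies together in the genome, apoa4b.1, apoa4b.3, apoa4b.2, apoeb, apoc4, apoa2 and apoc2 in the GRCz12tu order, and their differences ran from -0.51 to 0.05. apoa4b.2, one of the apolipoprotein A-IV genes that are expressed in the fish intestine, read 3.17, 2.73 and 3.56 in WT and 2.03, 3.03 and 2.86 in il7r-/- larvae. The genotypes overlapped and il7r-/- replicate 1 was the lowest. The difference was -0.51 (SE 0.32, adjusted p = 0.581), and -0.85 in its second probe set. Without WT replicate 3 these were -0.31 and -0.44, and the first was -0.21 without il7r-/- replicate 1. apoeb and apoa2, named here because their groups did not overlap, were less scattered. apoeb encodes apolipoprotein E, a ligand for lipoprotein receptors that zebrafish make in the yolk syncytial layer and in microglia. It read 7.26, 7.55 and 6.99 against 6.73, 6.77 and 6.84, a difference of -0.49 (SE 0.16, adjusted p = 0.315) that became -0.62 without WT replicate 3. In its second probe set the groups overlapped and the difference was -0.31.

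apoa2, another protein of high-density lipoprotein, read 4.09, 4.38 and 4.48 in WT and 3.79, 3.97 and 4.03 in il7r-/- larvae. The difference was -0.39 (SE 0.14, adjusted p = 0.362), and -0.3 without WT replicate 3. apoc2, the activator of lipoprotein lipase, had a difference of -0.26 that became -0.04 without WT replicate 3. The second pair of neighbours, apoa4a and apoea, had differences of -0.05 and -0.01. Genes that assemble and clear lipoproteins, 21 measured, had a median of -0.08 with 15 below 0 and none called, and a median of -0.05 with 11 below 0 (52.4%) without WT replicate 3. Among these, sar1b, a transport protein needed to export large lipoproteins, had a difference of -0.3, and the receptor gene lrp1aa one of 0.36. Without WT replicate 3 these were -0.41 and 0.37.

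Of the 5 carriers, 4 had differences below 0, with a median of -0.21 that was -0.19 without WT replicate 3. cp encodes ceruloplasmin, the copper-carrying oxidase of iron. It read 3.86, 3.67 and 3.53 in WT and 3.66, 3.32 and 3.44 in il7r-/- larvae. The groups overlapped, with a difference of -0.21 (SE 0.14, adjusted p = 0.611), and -0.12 in a second probe set. The first was -0.13 without WT replicate 1, -0.29 without WT replicate 3 and -0.31 without il7r-/- replicate 1. The second was 0.02 without WT replicate 3. ambp, the precursor of the heme-binding alpha-1-microglobulin and the protease inhibitor bikunin, is named because its probe sets disagreed. The brighter one read 2.76, 2.61 and 3.11 against 2.44, 2.38 and 2.15, with no overlap and a difference of -0.5 (SE 0.16, adjusted p = 0.314). This was -0.36 without WT replicate 3. The other probe set read 2.13, 2.23 and 2.18 against 2.34, 2.34 and 2.36, with no overlap in the opposite direction and a difference of 0.17 (adjusted p = 0.559). ttr, the carrier of thyroid hormone, had a difference of -0.22 without overlap. ahsg1, a fetuin that binds calcium phosphate, and hp, which binds free haemoglobin, had differences of -0.16 and 0.02.

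Neither apobec2 gene was called. apobec2a read 5.14, 4.97 and 5.18 in WT and 5.47, 5.36 and 5.9 in il7r-/- larvae. All il7r-/- arrays were above all WT arrays. The difference was 0.48 (SE 0.17, adjusted p = 0.342). apobec2b had a difference of 0.09.

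**Figure D5:**
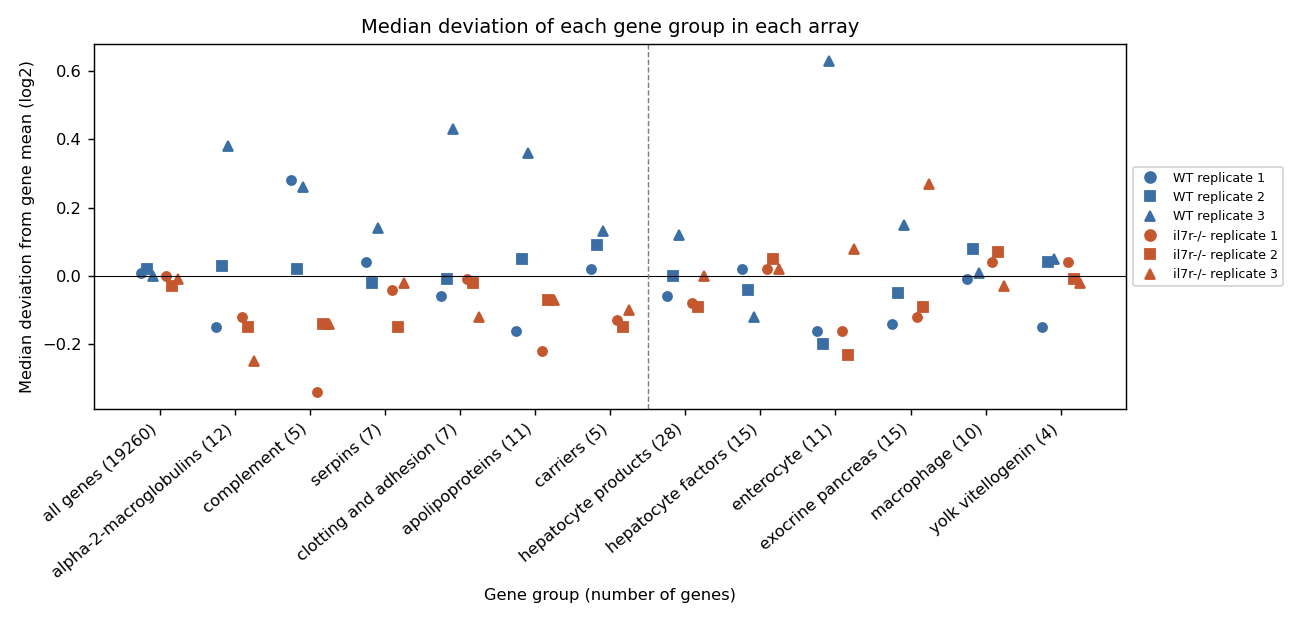
Median deviation from the gene means (log2, y axis) in each of the 6 arrays for all genes, the plasma protein roles and lists of other liver, gut, pancreas, macrophage and yolk genes (x axis, with the number of genes), where points are arrays. WT replicate 3 is the highest point for every plasma protein role except complement. It is also the highest for the enterocyte and hepatocyte product lists and, narrowly, for the vitellogenin genes.

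Other genes of the liver were set beside the plasma proteins to see whether the displacement extended to them. Of 28 further hepatocyte products and enzymes, 18 had differences below 0 and the median was -0.08, or -0.02 without WT replicate 3, and none was called. The brightest of these were gamt and bhmt, enzymes of creatine and methionine metabolism, with differences of -0.26 and -0.08. The 15 hepatocyte transcription factors had a median of 0.09, or 0.03 without WT replicate 3, with 6 below 0 and none called. The brightest of them, onecut1 and prox1a, had differences of 0.21 and -0.47. These are values of whole larvae, and the part of tissues other than the liver in them was not tested. Without WT replicate 3 onecut1 and prox1a had differences of 0.19 and -0.66. In 13 genes of the acute phase and inflammation the median was 0.08 with 3 below 0 and none called. There stat3 and cebpb had differences of 0.17 and 0.22, or 0.33 and 0.24 without WT replicate 3. The lists are not fully separate, since cebpb is also among the hepatocyte transcription factors and some other genes recur between lists. The lists of other tissues had medians of -0.07 for the 11 enterocyte genes, where 7 were below 0, 0.05 for the 15 exocrine pancreas genes, -0.06 for the 10 macrophage genes and 0.02 for 4 vitellogenin genes, and none of their members was called. The enterocyte median turned to 0.18 without WT replicate 3, with 3 of the 11 genes below 0.

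Across the 49 genes the median deviation from the gene means was -0.04, 0.02 and 0.24 in the 3 WT arrays and -0.11, -0.11 and -0.1 in the 3 il7r-/- arrays. The il7r-/- arrays were thus alike, WT replicates 1 and 2 lay slightly above them, and WT replicate 3 lay farthest. By brightness, the 34 genes in the lowest tertile had a median of -0.21 beside -0.01 for all genes of that tertile, and the 15 above it had one of -0.26 beside -0.03. The complement median did not move when WT replicate 3 was left out, because its middle gene, c3a.3, stayed at -0.38. The other complement genes did move, and the median deviations of complement in the WT arrays were 0.28, 0.02 and 0.26. The medians of the apolipoproteins and of the clotting genes moved most without WT replicate 3. With and without that array the median was -0.03 and -0.01 for the alpha-2-macroglobulins and -0.18 and -0.14 for the serpins.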

How the data were processed

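The deposited value table holds log2 values of 6 arrays, 3 WT and 3 il7r-/-, which the authors made in Expression Console. RMA is named in the submitters' processing notes, with no version. The log base was read from the values, which run from -0.02 to 13.09. Of 75212 probe sets, 20806 name 1 gene, 855 several and 53551 none in the platform annotation. All were fitted in R 4.3.3 with limma 3.58.1 (lmFit and eBayes, two-sided), with genotype as the factor and no filter, and p-values were adjusted over all of them (Benjamini-Hochberg). A call needed an adjusted p below 0.05 and a fold change above 1.5. The labels number the replicates, and the methods give 3 batches of larvae, but nothing ties the numbers to the batches.

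The genes and lists were chosen with earlier results of these data known. Values in every array are given for called genes, the 5 largest and 5 smallest differences, the brightest gene of each role and all alpha-2-macroglobulins. Other genes singled out were chosen after their values were seen. From each list at most the 2 brightest genes are named. The methods state one-way analysis of variance, which for 2 groups equals an equal-variance t-test and is called the methods' t-test here. The fit was also run on simulated arrays with known changes and independent noise drawn from its own model. This checks the code and cannot check the calls in these arrays. Gene order came from RefSeq for GRCz12tu, whose symbols matched all 49 genes. Only these genes were ordered, so other genes may lie between those called neighbours. No sequences are shown. The precision is limited by the number of arrays. Alternatives were other tests, thresholds, normalizations, filters and probe set rules, array weights, a replicate block and each array left out in turn. Leaving out the apobec2 genes, and the counts without WT replicate 3, were added after seeing the data.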

Additional observations from a re-analysis of the deposited data

How the results depend on the processing

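The count of genes called lower was 1, and it was 2 by the methods' t-test without adjustment, 0 after its Benjamini-Hochberg adjustment, 4 by limma without adjustment, 0 at a fold over 2 and 0 with the replicate number as a block, where a2m2a had an adjusted p of 0.19 and no gene of the table was called. It was 0 to 0 when single arrays were left out, and 1 under the 8 other settings. The adjusted p of a2m2a ran from 0.011 to 0.192 over the settings that adjust p. The lowest came from fitting and adjusting over only the probe sets that name 1 gene. The direction of a2m2a was kept in all 19 settings. The count called higher was 0 under every setting. The median of the 49 genes ran from -0.27 to -0.08 when single arrays were left out, the latter without WT replicate 3. The median of the alpha-2-macroglobulins ran from -0.26 to -0.01 when single arrays were left out, and was -0.43 without the lowest tertile of probe sets, where 4 of the 12 genes were fitted. Taken over all probe sets, same-numbered arrays did not deviate together (correlations of -0.00808, 0.00339 and 0.0229). Such correlations cannot show a batch shared by part of the genes, so whether the numbers pair the arrays was not settled. Calls over all genes fell from 35 lower and 10 higher to 2 or fewer in each direction when any array but WT replicate 3 was left out, and were 50 and 11 without that array.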
